A study of Mus musculus with 6 samples.

Results

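The genes described here are 43 translation initiation and elongation factors, out of 11138 genes that could be named on the arrays. They were chosen by name alone, as every gene whose symbol begins with Eif followed by a number between 1 and 6, or with Eef followed by 1 or 2. By family, 10 belong to eIF2 with its exchange factor and its kinases, 9 to eIF3, 8 to eIF4 and its binding proteins, 6 to the remaining initiation factors and 10 to the elongation factors and their modifying enzymes. Of these genes, 38 were represented by 2 spots and 5 by 4 spots from 2 clones, 96 spots in all. Eif2s1, which encodes the alpha subunit of eIF2, and Eef2, which encodes the translocase of elongation, were not analysed here.

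Protein synthesis in eukaryotes starts when eIF2 brings the initiator tRNA to the small ribosomal subunit, eIF3 holds that subunit in readiness, and the eIF4 proteins recognise the cap of the mRNA and unwind its leader. In elongation, eEF1A delivers each aminoacyl-tRNA to the ribosome, the eEF1B subunits recharge eEF1A with GTP, and eEF2 moves the ribosome along. Cells under stress reduce initiation by phosphorylating eIF2 or by letting eIF4E-binding proteins take up the cap-binding factor, steps that act on proteins and need not alter the mRNAs measured here.

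RNA came from endothelial cells sorted from mice that had been exposed to environmental tobacco smoke and from control mice, and each of 6 arrays compared 1 RNA of each kind in 2 colours. Exposure lasted 6 weeks on 3 arrays, of which 2 used 1-week control as partner and differed in dye orientation, and 1 used 6-week control. Exposure lasted 1 week on the other 3 arrays, of which replicate 1 was dye-reversed, and the age of the control is not given for them. The labels name no strain, sex, age, organ, sorting marker or smoke dose, and they do not say whether arrays came from separate animals or whether the 1-week dye reversal repeats RNA of another array, so p-values measure only the spread between arrays and the small number of arrays limits their precision. A ratio of 2 RNA samples gives no level, so the endothelial identity of the cells could not be checked against the levels of marker genes. In such bulk samples, fewer cells of a type and less RNA per cell cannot be told apart.

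Each value is the deposited log2 ratio averaged over the spots of a gene. Titles name smoke before control and smoke is channel 1 on every array, so a positive ratio likely means more mRNA after smoke; neither the numerator nor the dye of either channel is stated, and the sign of every array was kept as deposited. The arrays did not all vary alike. Agreement between spots was taken as a gap under 1 log2 unit on each of the 6 arrays, which 5625 genes met. Over these genes the dye-reversed arrays of the 2 exposure times had a correlation of r = 0.43. The 1-week dye reversal correlated at 0.18 and 0.23 with the other 1-week arrays, which correlated at 0.39 with each other, and the 6-week dye reversal correlated at 0.045 with its partner. Results are therefore also given with a dye-reversed array turned, left out, or fitted with a dye term, wherever that alters a call.

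Repeat spots of the factors agreed better on the 1-week arrays than on the 6-week arrays. Over the 38 factors with 2 spots, the spots correlated at 0.44 on the 6-week array against 1-week control, 0.045 on its dye reversal and 0.23 on the array against 6-week control, and at 0.84, 0.71 and 0.69 on 1-week replicates 1, 2 and 3. Over the 10180 genes with 2 spots the same correlations were 0.37, 0.37 and 0.33 on the 6-week arrays and 0.42, 0.23 and 0.21 on the 1-week arrays. The spots of 27 of the 43 factors (62.8%) agreed on all arrays, against 50.5% of all named genes. These 27 are called factors with agreeing spots below.

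**Figure D1:**
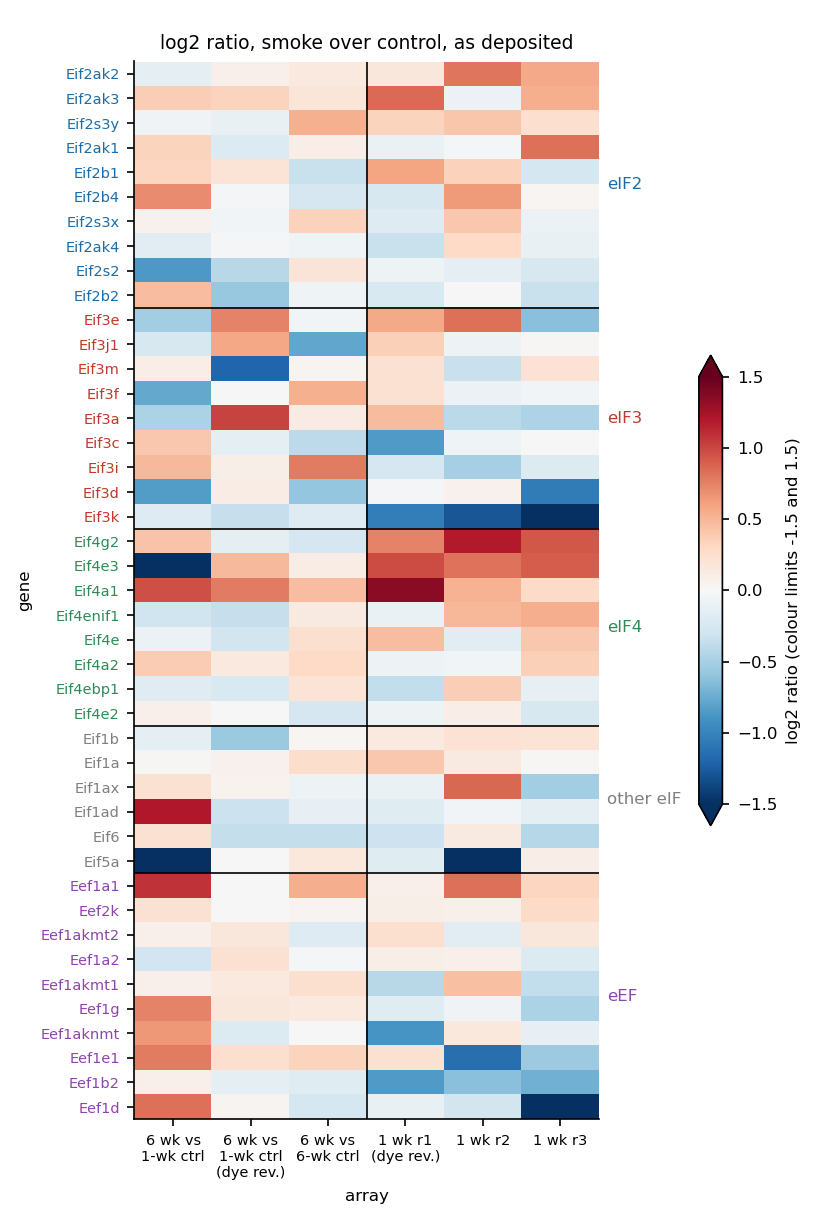
Log2 ratio of smoke over control for the 43 factors (rows, grouped by family and sorted by the 1-week mean) on the 6 arrays (columns, 6-week arrays left of the line and 1-week arrays right of it). Colours stop at -1.5 and 1.5; Eif3k is negative on all 6 arrays and Eif4a1 positive on all 6, while Eif4g2 and Eef1b2 stand out on the 1-week arrays.

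The family as a whole did not shift in one direction. The median ratio over the 43 factors was 0.029 at 6 weeks, with 24 positive and 19 negative means, and 0.036 at 1 week, with 23 positive and 20 negative means. In limma's moderated test over 19242 genes and unnamed features, with Benjamini-Hochberg adjustment, 0 of the 43 factors passed an adjusted p of 0.05 at 6 weeks, at 1 week, in the difference of the times or in their mean, and 0% of all tests did so in each of these comparisons. At an unadjusted p under 0.05, 0 of the 43 factors were past the threshold at 6 weeks (4.12% of all tests). At 1 week 6 factors, 14% of the 43, were past it (6.65% of all tests), of which Eif4g2, Eif4e3, Eif4a1 and Eif2ak2 were positive (3.53% of all tests) and Eif3k and Eef1b2 negative (3.12%). In the mean of both times 5 factors (11.6%) were past it, against 6.31% of all tests. They were Eif4a1, Eif4g2 and Eef1a1 with a positive ratio (3.2% of all tests) and Eif3k and Eef1b2 with a negative one (3.12%).

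When the test was fitted only on the 5625 genes with agreeing spots, 3 of 27 factors passed at 1 week, where 1.81% of those genes passed. Eif4g2 rose (1.01% of genes passed with a positive ratio), and Eif3k and Eef1b2 fell (0.8% with a negative one). At 6 weeks 0 of 27 factors passed (0.213% of genes), 0 passed in the difference between the times (0% of genes), and Eif3k passed in the mean of both times (1.83% of genes). Leaving out 1-week replicate 2 or 1-week replicate 3 reduced the 1-week count to 0, and turning the sign of the 1-week dye reversal also left 0, whereas turning that of the 6-week dye reversal left 2. Over all 5625 genes, 57 positive and 45 negative ratios passed at 1 week in the main fit. Without replicate 2 these were 6 and 8, and without replicate 3 they were 0 and 1. With the 1-week dye reversal turned they were 0 and 3, and with the 6-week dye reversal turned 43 and 35. Without the 6-week dye reversal, or without the array against 6-week control, Eif3k was the 1 factor that passed at 1 week. Over all 5625 genes, 43 positive and 36 negative ratios passed without the 6-week dye reversal. Without the array against 6-week control these were 12 and 13. With a dye term for each gene 4 factors passed at 1 week, Eif4g2, Eif3k, Eef1b2 and Eif4a1, where 3.16% of genes passed.

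Among the eIF3 subunits, which form the largest initiation factor and bind the small ribosomal subunit, the one that passed at 1 week among genes with agreeing spots was Eif3k, which encodes a subunit outside the conserved core of the complex. Eif3k had ratios of -0.20, -0.35 and -0.19 on the 6-week array against 1-week control, its dye reversal and the array against 6-week control, and of -1.04, -1.29 and -1.58 on 1-week replicates 1, 2 and 3. All 6 values were negative, and the 1-week and 6-week ranges did not overlap. The -0.20 averages spots at 0.043 and -0.43. How many named genes have separate ranges in this way was not counted, for Eif3k or the factors below. The 1-week mean of -1.30 ± 0.27 (SD, n = 3 arrays) is a 2.47-fold lower ratio, with an adjusted p of 0.375 over all tests and of 0.00921 among genes with agreeing spots (SE 0.16). Both of its spots were at or below -1.02 on each 1-week array. With a dye term in the latter fit the mean was -1.25 with an adjusted p of 0.00986, and with the 1-week dye reversal turned it was -0.61 with an adjusted p of 0.837. Without 1-week replicate 2 the mean was -1.31 (adjusted p 0.066), and without replicate 3 it was -1.16 (adjusted p 0.0854).

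Of the other 8 eIF3 subunits, 4 had a positive and 4 a negative mean at 1 week, between -0.34 for Eif3d, which encodes an mRNA cap-contacting subunit, and 0.25 for Eif3e. The core subunit genes Eif3a and Eif3c averaged -0.13 and -0.30, and none of these 8 had an unadjusted p under 0.05 at 1 week. Eif3i, a core subunit gene, changed sign with exposure time: its ratios were 0.49, 0.091 and 0.78 on the 6-week arrays and -0.25, -0.50 and -0.21 on the 1-week arrays. Its difference of 0.86 (SE 0.28) between 6 weeks and 1 week had an unadjusted p of 0.0246 but an adjusted p of 0.528 among genes with agreeing spots. Eif3a, Eif3e and Eif3j1 had their 6-week dye reversal at 1.01, 0.75 and 0.58 and its partner array at -0.47, -0.53 and -0.24. The 0.75 averages spots at 1.49 and 0. Eif3d was at 0.12 and -0.84 on these arrays. Eif3c and Eif3m went the other way, at -0.15 and -1.19 on the dye reversal and 0.41 and 0.097 on its partner. The signs of these genes were thus opposite in the 2 dye orientations. How many named genes have such opposite signs was not counted.

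The region before the start of transcription was looked up for the factors in a RefSeq table of promoters, which runs from 250 bases before to 50 after each annotated start in mouse assembly GRCm38.p6 and held 33 of the 43. Shown first are 2 eIF3 genes with unlike 1-week ratios. The stretch of Eif3k (chr7:28981874-28981933, minus strand) has in capitals the letters CACGTG, the E-box read by Myc and USF proteins, beginning 44 bases before the start. That of Eif3f (chr7:108934370-108934429, plus strand) has in capitals a run of C and T beginning with C at the annotated start itself, as in the 5' terminal oligopyrimidine mRNAs whose translation depends on mTORC1.
Eif3k: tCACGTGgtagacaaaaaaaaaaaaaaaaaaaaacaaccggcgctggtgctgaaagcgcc
Eif3f: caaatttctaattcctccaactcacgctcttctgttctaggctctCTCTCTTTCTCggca

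Eif3f, whose start carries that run, had a 1-week mean of 0.034 and a 6-week mean of 0.077, far from the 1-week value of Eif3k. CACGTG was present in 9 of the 33 factors with a promoter entry (27.3%), against 8.09% of 27025 genes, and also lay in the promoter of Eif3f outside the printed stretch. A gene was counted if any of its listed promoters had the match, and some genes have several, such as Eif5a with 6. A start run of at least 6 pyrimidines beginning with C was found in Eif3f and Eif2s3x (6.06%), against 2.05% of genes. Only a run from the annotated start base itself was counted, so a run beginning a few bases away was missed. The 10 factors without an entry could not be looked up, so other factors may have such starts. The letters CCGGAAGT on either strand, a site shape of ETS factors, were present in 7 of 33 (21.2%), against 4.31%. These matches are descriptions of sequence and were not tested against the ratios.

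The eIF4 proteins, which bind the cap, unwind the leader and bridge mRNA and ribosome, were the family with the highest median at 1 week, 0.27, against -0.024 at 6 weeks. Their median was 0.19, 0.43 and 0.38 on the 3 1-week arrays, and no other of the 5 families had a positive median on all 3. Without 1-week replicate 3 the 1-week median was 0.18. The spread within the family was wide, since 3 of its 8 genes supplied the high values. Eif4g2, which encodes a relative of the eIF4G scaffold that lacks the site for eIF4E and serves cap-independent initiation, had ratios of 0.43, -0.14 and -0.25 on the 6-week arrays and of 0.74, 1.20 and 0.94 on the 1-week arrays. Every 1-week value exceeded every 6-week value, and its paired spots differed by at most 0.052 on the 1-week arrays. The 1-week mean of 0.96 ± 0.23 (SD, n = 3 arrays), a 1.94-fold higher ratio, had an adjusted p of 0.455 over all tests and of 0.026 among genes with agreeing spots. That adjusted p was 0.135 without 1-week replicate 2, 0.164 without replicate 3, 0.0512 without the 6-week dye reversal and 0.0751 without the array against 6-week control. With a dye term the mean was 0.93 (adjusted p 0.0276), and with the 1-week dye reversal turned 0.46 (adjusted p 0.837).

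Eif4e3, which encodes a cap-binding relative of eIF4E, had ratios of -1.61, 0.49 and 0.11 on the 6-week arrays and of 0.98, 0.82 and 0.91 on the 1-week arrays. The 1-week values lay close together, at a mean of 0.90 ± 0.080 (SD, n = 3 arrays), whereas its 2 spots were at -0.96 and -2.26 on the 6-week array against 1-week control and at -0.77 and 1.76 on the dye reversal. Because of these gaps it was outside the genes with agreeing spots, and the -1.61 averages 2 unlike spots. Among the 7374 genes whose spots agreed on the 1-week arrays, a filter chosen after the data were seen, Eif4e3 had an adjusted p of 0.0564 at 1 week, and there 1.07% of genes passed, Eif3k and Eif4g2 among them.

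Eif4a1, which encodes the DEAD-box helicase that unwinds mRNA leaders, was higher on all 6 arrays at both exposure times. Its ratios were 0.96, 0.78 and 0.46 on the 6-week arrays and 1.35, 0.52 and 0.29 on the 1-week arrays. The ranges of the 2 times overlapped, and their means of 0.66 (SE 0.31) at 6 weeks and 0.72 (SE 0.25) at 1 week differed by -0.053 (SE 0.40). The mean of both times was 0.69 (SE 0.20) with an unadjusted p of 0.0162, which did not pass the adjustment over all tests or among genes with agreeing spots, where the adjusted p was 0.0958. With a dye term in the latter fit Eif4a1 passed, at 0.87 with an adjusted p of 0.0244 at 1 week and at 0.88 with an adjusted p of 0.0153 in the mean of both times, where 2.28% of genes passed. The highest value came from the 1-week dye reversal, and with that array turned the 1-week mean was -0.18. Its paralog Eif4a2 averaged 0.28 at 6 weeks and 0.084 at 1 week; the labels and tables do not give the probe sequences, so how far similar mRNAs such as those of Eif4a1 and Eif4a2, Eef1a1 and Eef1a2, Eif2s3x and Eif2s3y, or Eif1a and Eif1ax share signal is unknown. CACGTG lay 189 bases before the annotated start of Eif4a1, shown in capitals in the minus strand of chr11:69672580-69672639.
Eif4a1: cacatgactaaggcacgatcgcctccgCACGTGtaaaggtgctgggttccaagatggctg

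The cap-binding factor itself and its best known inhibitor had ratios of both signs. Eif4e had ratios of -0.087, -0.28 and 0.24 on the 6-week arrays and of 0.46, -0.16 and 0.40 on the 1-week arrays. Eif4ebp1, which encodes the binding protein that mTORC1 releases from eIF4E, had -0.18, -0.23 and 0.21 at 6 weeks and -0.37, 0.37 and -0.12 at 1 week. Both genes crossed 0 within each exposure time. Eif4enif1, which encodes a carrier that takes eIF4E into the nucleus, averaged -0.094 at 6 weeks and 0.32 at 1 week, and Eif4e2, a cap-binding repressor gene, averaged -0.11 and -0.074.

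**Figure D2:**
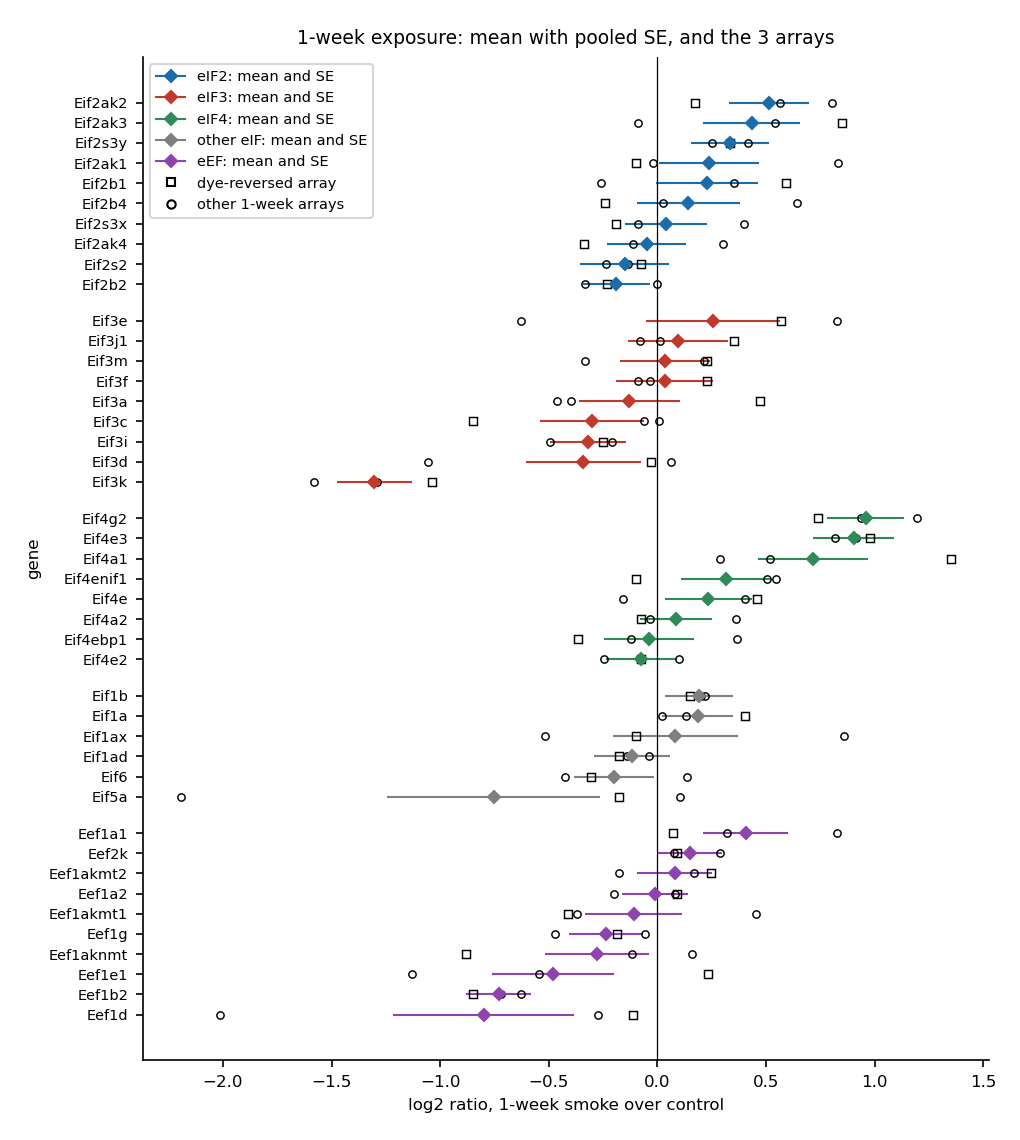
Log2 ratio of 1-week smoke over control for each factor (rows, by family), with the mean and its pooled SE as a diamond with a bar and the 3 arrays as open symbols, the square being the dye-reversed array. Eif3k lies furthest below 0 and Eif4g2 furthest above it, and the 3 arrays of Eif4a1, Eif5a and Eef1d lie far apart.

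The eIF2 family had a median of 0.049 at 6 weeks and 0.18 at 1 week, which was 0.028 without 1-week replicate 2. Its kinases each sense a different stress and phosphorylate eIF2, and 3 of the 4 had a positive mean at both times. Eif2ak2, the gene of the kinase activated by double-stranded RNA, had ratios of -0.15, 0.074 and 0.14 on the 6-week arrays and of 0.17, 0.80 and 0.57 on the 1-week arrays, without overlap between the times. Its 1-week mean of 0.51 (SE 0.18) had an unadjusted p of 0.0351. That mean includes 1 spot at 3.42 on 1-week replicate 2, where the second spot of the same clone was at -0.25, and the other clone averaged 0.31 over the 1-week arrays against 0.72 for this one. Eif2ak3, for the kinase of the endoplasmic reticulum, averaged 0.26 at 6 weeks and 0.43 at 1 week. Eif2ak1, for the heme-regulated kinase, averaged 0.080 and 0.24, and Eif2ak4, for the kinase that senses uncharged tRNA, -0.077 and -0.050.

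The subunit genes of eIF2 and of its exchange factor eIF2B stayed between -0.22 and 0.22 at 6 weeks and between -0.19 and 0.33 at 1 week, and none had an unadjusted p under 0.05. Eif2s2, for the beta subunit, was negative on all 3 1-week arrays with a mean of -0.15 ± 0.082 (SD, n = 3 arrays). The gamma subunit is encoded on both sex chromosomes in mice: Eif2s3y on the Y chromosome averaged 0.22 at 6 weeks and 0.33 at 1 week, and Eif2s3x on the X chromosome 0.18 and 0.039. Eif2s3x is the other factor with a counted pyrimidine run at its annotated start, given here in capitals from the minus strand of chrX:94212637-94212696. It passed no adjusted test.
Eif2s3x: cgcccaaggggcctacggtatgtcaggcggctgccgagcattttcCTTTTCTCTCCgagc

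Of the remaining initiation factors none had an unadjusted p under 0.05 at 6 weeks or 1 week. Eif1a, a gene of the eIF1A type that guides start codon choice, was weakly positive on every array, with 0.014, 0.064 and 0.26 at 6 weeks and 0.40, 0.13 and 0.021 at 1 week. Its spots were at 0.24 and -0.11 on the 6-week dye reversal and at -0.043 and 0.084 on 1-week replicate 3. Eif1b, related to eIF1, averaged -0.16 at 6 weeks and 0.19 ± 0.035 (SD, n = 3 arrays) at 1 week. Eif6, for the factor that keeps the ribosomal subunits apart, had 2 clones that did not agree, at -0.44 and 0.040 over the 1-week arrays. Eif5a, for the hypusine-bearing factor that relieves stalled ribosomes, ranged from -1.57 to 0.16 on the 6-week arrays and from -2.19 to 0.10 on the 1-week arrays, with both signs at 1 week and spots up to 2.26 apart.

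The elongation factors and their modifying enzymes had a median of 0.099 at 6 weeks and -0.17 at 1 week, which was -0.032 without 1-week replicate 1 and -0.050 without replicate 3. On the 6-week array against 1-week control 9 of the 10 were positive, with a median of 0.44, but the median was 0.098 on its dye reversal and 0.023 on the array against 6-week control. Among these 9, the spots on that first array were at 2.41 and -0.75 for Eef1d and at 1.81 and -0.52 for Eef1aknmt. Of the 3 eEF1B genes, Eef1b2 alone had agreeing spots and entered that test, which it passed at 1 week. Eef1b2, for the subunit that exchanges GDP for GTP on eEF1A, had ratios of 0.077, -0.13 and -0.18 on the 6-week arrays and of -0.85, -0.63 and -0.72 on the 1-week arrays. The 1-week values lay below all 6-week values, and its 2 spots never differed by more than 0.11 on any array. The 1-week mean of -0.73 ± 0.11 (SD, n = 3 arrays), a 1.66-fold lower ratio, had an adjusted p of 0.503 over all tests and of 0.0444 among genes with agreeing spots. This was the least stable of the 3 calls: the adjusted p was above 0.05 when any 1 array was left out, between 0.0587 and 0.213, and 0.0648 with the 6-week dye reversal turned. It was 0.0426 with a dye term, with a mean of -0.75, and with the 1-week dye reversal turned the mean was -0.17. The stretch around the start of Eef1b2 (chr1:63176786-63176845, plus strand) holds CCGGAAGT, in capitals, from the second transcribed base on.
Eef1b2: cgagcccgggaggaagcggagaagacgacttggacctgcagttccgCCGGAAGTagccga

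The other eEF1B genes had negative ratios on all 3 1-week arrays and none had an unadjusted p under 0.05. Eef1g, for the scaffold subunit, had 0.75, 0.17 and 0.15 at 6 weeks and -0.19, -0.056 and -0.47 at 1 week. The 0.17 averages spots at -0.11 and 0.44, and the 0.15 averages spots at -0.59 and 0.89. Eef1d, for the second exchange subunit, had 0.83, 0.045 and -0.26 at 6 weeks and -0.11, -0.27 and -2.01 at 1 week, so its 1-week mean of -0.80 ± 1.05 (SD, n = 3 arrays) rests on replicate 3. Its spots were up to 3.15 apart, and the 0.83 averages spots at 2.41 and -0.75. Eef1e1, for a scaffold of the aminoacyl-tRNA synthetase complex, had 0.78, 0.25 and 0.34 at 6 weeks and 0.23, -1.13 and -0.54 at 1 week.

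Eef1a1, the main eEF1A gene of most tissues, had ratios of 1.09, 0 and 0.54 on the 6-week arrays and of 0.070, 0.83 and 0.32 on the 1-week arrays. None was negative, and the 0 stands for 2 spots deposited as a fold of exactly 1 on the 6-week dye reversal. Its mean over both times was 0.47 (SE 0.16), with an unadjusted p of 0.0256 and an adjusted p of 0.142 among genes with agreeing spots. Eef1a2, the eEF1A gene of muscle and neurons, averaged -0.027 at 6 weeks and -0.011 at 1 week. Eef2k, for the kinase that inactivates eEF2, was positive on all 6 arrays but small, with 0.22, 0.0066 and 0.045 at 6 weeks and 0.088, 0.075 and 0.29 at 1 week. Its 2 spots were at 0.39 and -0.21 on 1-week replicate 1 and at 0.14 and -0.12 on the 6-week dye reversal. They also had opposite signs on 1-week replicate 2 and on the array against 6-week control. The 3 eEF1A methyltransferase genes averaged between -0.038 and 0.18 at 6 weeks and between -0.28 and 0.079 at 1 week.

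**Figure D3:**
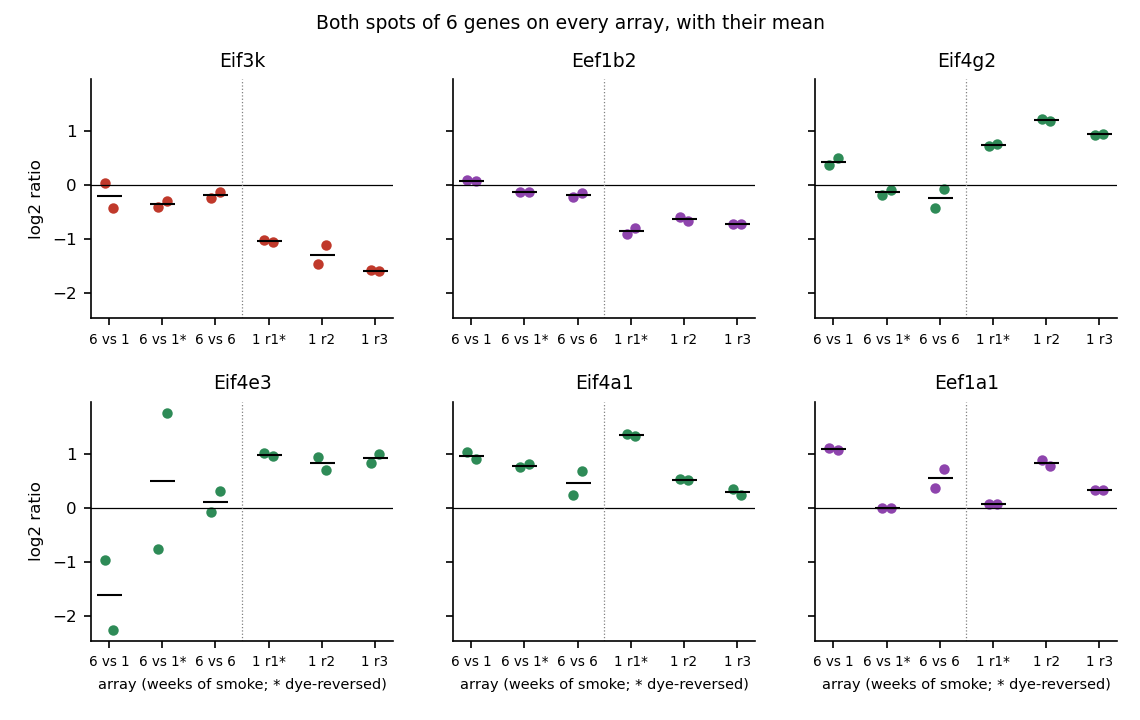
Log2 ratios of both spots (points) and their mean (black line) for 6 factors on every array, labelled by weeks of smoke and of control at 6 weeks, by replicate at 1 week, and with an asterisk for dye reversal. The spots of Eif3k, Eef1b2 and Eif4g2 stay together on the 1-week arrays, whereas those of Eif4e3 split on the 6-week arrays; both spots of Eef1a1 are at 0 on the 6-week dye reversal.

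The difference between exposure times was tested for each factor. In the test over all genes and features 5 of 43 factors (11.6%) had an unadjusted p under 0.05 for 6 weeks minus 1 week, against 3.55% of all tests. The difference was positive for Eif3k (1.07, SE 0.27), Eif3i (0.86, SE 0.28) and Eef1b2 (0.63, SE 0.24), a sign found in 1.72% of all tests, and negative for Eif4e3 (-1.13, SE 0.30) and Eif4g2 (-1.01, SE 0.28), found in 1.83%. The smallest adjusted p among the factors was 0.951, and 0.35 among those with agreeing spots, for Eif3k. The ratios of these 5 genes were thus not shown to differ between the times, although Eif3k, Eif4g2 and Eef1b2 passed the agreeing-spot test at 1 week and not at 6 weeks. The separation of 1-week and 6-week ranges named above for some factors was not counted over all genes and adds nothing to these tests. One sign on all 3 1-week arrays was seen in 16 of 43 factors (37.2%), against 30.5% of named genes, and one sign on all 6 arrays in 4 (9.3%), against 6.67%. Those 4 were Eif4a1, Eif1a and Eef2k with positive ratios (3.24% of named genes) and Eif3k with negative ones (3.43%). These are signs of spot averages, and the spots of Eif1a, Eef2k and Eif3k had opposite signs on at least 1 array. Opposite signs at the 2 times were seen in Eif3i and Eef1g (2.66% of named genes), for Eef1g in averages that include opposed spots at 6 weeks. A 1-week mean of 0.58 or more in size was reached by 7 factors (16.3%), against 9.25% of named genes.

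Cytosolic ribosomal protein genes, whose products work with these factors and whose mRNAs are known for the pyrimidine start, are set beside the factors here. Their median over 70 genes was 0.018, -0.11 and -0.057 on the 6-week arrays and -0.35, -0.36 and -0.43 on the 1-week arrays. The 43 factors had medians of 0.077, 0 and 0.045 at 6 weeks and -0.074, 0.075 and -0.091 at 1 week. At 1 week 20 of the 43 factors had a negative mean, against 54 of the 70 ribosomal protein genes and 51.1% of named genes. Among genes with agreeing spots 3 of 27 factors and 11 of 49 ribosomal protein genes passed at 1 week, where 1.81% of all such genes did. The difference between the factors and the ribosomal protein genes was not tested. Rps18 had the smallest p of them, with a 1-week mean of -2.25 (SE 0.16) and a 6-week mean of -0.13. Eef1a1, Eef1a2, Eef1b2, Eef1d, Eef1e1 and Eef1g, the 6 genes of the elongation family other than its modifying enzymes, had a 1-week median of -0.36. Of these, Eef1e1 encodes a scaffold of the aminoacyl-tRNA synthetase complex, and the spots of Eef1d, Eef1e1 and Eef1g did not agree on all arrays. The 6 eIF4 helicase, cap and scaffold genes had a median of 0.48. The median over all factors, 0.036, lay between these values.

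**Figure D4:**
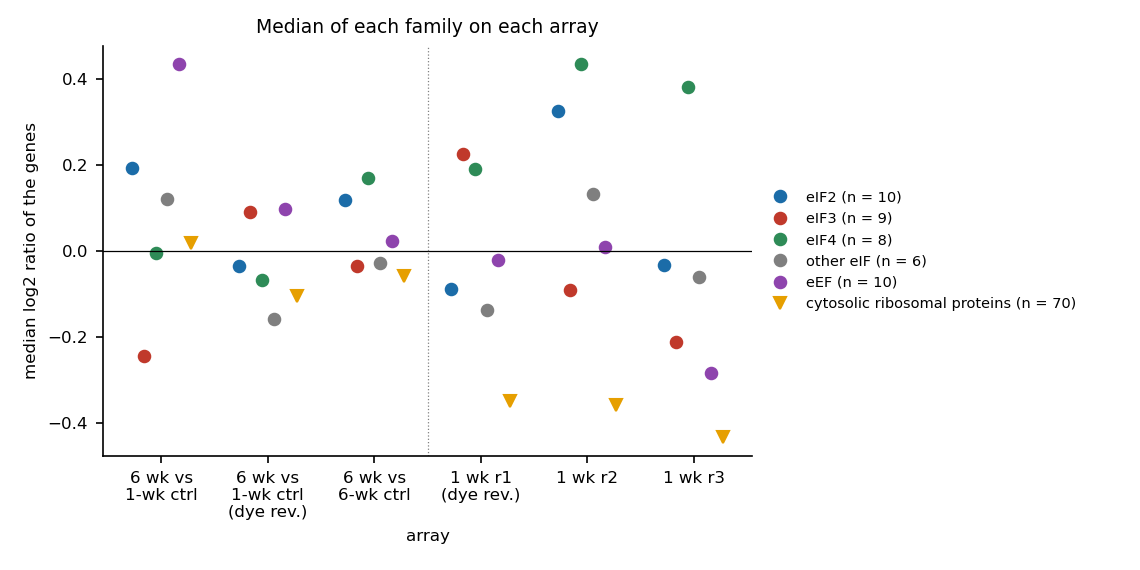
Median log2 ratio of each factor family and of the cytosolic ribosomal proteins (triangles) on each array, 6-week arrays left of the dotted line. The ribosomal proteins lie between -0.35 and -0.43 on the 1-week arrays, where the eIF4 genes lie between 0.19 and 0.43. On the 6-week array against 1-week control the elongation factor genes lie at 0.44 and the eIF3 genes at -0.24, and on the other 6-week arrays all families lie between -0.16 and 0.17.

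In 5 further lists, of stress response targets, mTORC1 and cap control, termination, tRNA synthetases and mitochondrial factors, no gene passed the adjusted test at 1 week over all tests or among genes with agreeing spots. Over all tests, 3.53% had a positive and 3.12% a negative ratio with an unadjusted p under 0.05 at 1 week. Of 18 measured targets of the integrated stress response, the programme that follows eIF2 phosphorylation, 0 had a positive and 2 a negative ratio with an unadjusted p under 0.05 at 1 week, and the median was -0.0091 at 6 weeks and -0.17 at 1 week. Ppp1r15a, for the phosphatase subunit that reverses eIF2 phosphorylation, had ratios of 0.98, 0.35 and 0.60 on the 6-week arrays and of -1.12, -0.43 and -1.07 on the 1-week arrays; Cebpb, for a stress-responsive transcription factor, averaged -0.13 at 6 weeks and -0.58 at 1 week. Of 17 genes of mTORC1 and cap control, 0 were positive and 1 negative at an unadjusted p under 0.05 at 1 week; this was Rptor, for a scaffold of mTORC1, at 0.11 at 6 weeks and -0.39 at 1 week. Of 9 genes of termination, recycling and reinitiation 1 was positive, Ddx3x, for a helicase that aids initiation, at 0.82 at 6 weeks and 0.58 at 1 week. Of 12 cytosolic aminoacyl-tRNA synthetase genes 1 was positive, Qars, at 0.19 at 6 weeks and 0.63 at 1 week, with spots up to 2.64 apart, and of 3 mitochondrial translation factor genes none was past that threshold in either direction. Spots were up to 2.17 apart for Cebpb, 1.60 for Ddx3x, 1.15 for Rptor and 1.09 for Ppp1r15a. These genes and Qars were therefore outside the genes with agreeing spots.

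Of the markers of cell types, 0 passed the adjusted test over all tests, and among genes with agreeing spots Dpt, Cldn5 and Acta2 passed in at least 1 comparison. Fibroblast markers (7 of 8 measured) had a median of -0.13 at 6 weeks and -0.49 at 1 week. They did not move together, with 2 positive and 5 negative means at 6 weeks and 3 positive and 4 negative at 1 week. At an unadjusted p under 0.05, 0 were positive and 3 negative at 1 week. Dpt was at -0.53 at 6 weeks and -1.33 at 1 week. Among genes with agreeing spots it passed at 1 week (adjusted p 0.0193) and in the mean of both times (adjusted p 0.024). Endothelial markers (13 of 14 measured) had a median of -0.26 at 6 weeks and -0.061 at 1 week, with 1 positive, Tek at 0.33 and 0.44, and 4 negative at 1 week, among them Egfl7 at -0.32 and -0.61 and Cldn5 at -0.90 and -0.68. Cldn5 passed in the mean of both times (-0.79, adjusted p 0.0225). Leukocyte markers (13 of 15) had medians of -0.012 and -0.095, with Lyz2 at -0.58 at both times, epithelial markers (7 of 8) 0.033 and -0.095, muscle and pericyte markers (7 of 7) 0.095 and -0.090, adipocyte markers (5 of 6) -0.047 and 0.060, and erythroid markers (3 of 5) -0.21 and -0.26. Acta2, a smooth muscle marker, stood apart from its list at 1.14 (SE 0.26) at 6 weeks and 0.46 at 1 week and passed in the mean of both times (adjusted p 0.0364). Alas2, an erythroid marker, was at -0.54 at 6 weeks and at 0.95 at 1 week (unadjusted p 0.0263), opposite in sign to its list's median at 1 week only. The part of these markers' shifts in the results on the factors was not tested.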

How the data were processed

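The deposited table gives 1 log2 ratio per feature and array for 32448 features on 6 arrays of 2 channels, made by the authors. From the values, the ratios are log2 of folds in whole hundredths (tolerance 0.02 of a hundredth) with a median of 3e-07 per array; background correction, normalization, dyes, scale and direction are not given in the sources used here, and no intensities were used. A probe table gave 24344 features 1 gene symbol, 98 several, and 8006 were not in it; symbols were checked against RefSeq GRCm38.p6, with 24076 matched and 0 changed.

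Spots were averaged per gene. The 2 arrays of a 6-week dye swap were averaged, leaving 5 replicates. limma 3.58.1 in R 4.3.3 (lmFit, eBayes) was fitted on 11138 named genes and 8104 unnamed features, 19242 tests, with a coefficient per exposure time, a pooled spread (3 residual and 2.39 prior degrees of freedom; 3 and 5.62 among genes with agreeing spots), two-sided tests and a Benjamini-Hochberg threshold of 0.05. The 6-week mean weights the averaged swap and the third array equally. Factors, gene lists and tests were chosen with earlier results of these data known. Values on every array are given for factors past an unadjusted p of 0.05 at 1 week or in the mean of both times. They are also given for factors with the same sign on all 6 arrays and the 3 with the smallest p at 6 weeks. Eef1a1, Eif3k, Eif4e and Eif4ebp1 were fixed by name. Eef1g, Eef1d, Eef1e1 and parts of Eif3a, Eif3c, Eif3d, Eif3e, Eif3j1 and Eif3m were added after their values were seen. Of each other list up to 3 genes with the smallest 1-week p are named. Alternatives changed signs of dye-reversed arrays, arrays, spots, centring, scale, dye term and variance model. The fits were run on simulated data with independent noise and no dye effect. Such data cannot show how the fits behave with the correlation between dye-reversed arrays seen here.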

Additional observations from a re-analysis of the deposited data

Results flagged for a closer look

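For 2 of the 43 factors (4.65%, against 2.66% of named genes) every 6-week array had one sign and every 1-week array the other. Eif3i was positive at 6 weeks and negative at 1 week, with a difference of 0.86 (SE 0.28, unadjusted p 0.0246). Eef1g had the same pattern in its spot averages, with a difference of 0.54 (SE 0.27, unadjusted p 0.0961). Its 2 spots were at -0.11 and 0.44 on the 6-week dye reversal. On the array against 6-week control they were at -0.59 and 0.89, so its sign on these arrays rests on averaging opposed spots. Neither difference passed limma's adjusted test over all genes and features.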

How the results depend on the processing

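Over all 19242 tests, 0 factors passed under every alternative except the planned restriction to genes whose spots differ by less than 1 or less than 0.5 log2 unit, which tests fewer and less variable genes. Both gave 3 factors at 1 week and 1 in the mean of both times. Within 1 log2 unit, 1.81% of 5625 genes passed at 1 week and 1.83% in the mean. Within 0.5 log2 unit, 51 of 2023 genes passed with a positive and 48 with a negative ratio at 1 week. In the mean these were 62 and 40. Repeating the alternatives within genes with agreeing spots, which was decided after the data were seen, moved the 1-week count of 3. It was 0 with the 1-week dye reversal or both reversals turned and 0 without variance moderation. Over all 5625 genes, 0 positive and 3 negative ratios passed with the 1-week dye reversal turned. These were 0 and 0 with both turned, and 1 and 0 without moderation. The 1-week count of factors was 1 without both dye-reversed arrays, with 1-week arrays alone, and with the 1-week dye reversal averaged with replicate 2 or replicate 3, and it ranged from 0 to 2 when 1 array was left out. Over all genes, 9 positive and 9 negative ratios passed without both dye-reversed arrays, and 12 and 13 with 1-week arrays alone. With that averaging they were 14 and 15 for replicate 2 and 14 and 16 for replicate 3. The count of 1 in the mean of both times was 0 with the 6-week dye reversal, the 1-week dye reversal or both turned, 0 without both dye-reversed arrays and 0 without moderation. Over all 5625 genes 0 passed in these fits, except that 23 positive and 14 negative ratios passed without both dye-reversed arrays. The count of factors in the mean was 2 at a threshold of 0.1, with the dye swap kept as 2 replicates and with a dye term, which also gave 4 at 1 week, and it ranged from 0 to 1 with 1 array left out. Over all genes, 113 positive and 81 negative ratios passed at 0.1, 86 and 62 with the swap kept as 2 replicates, and 76 and 52 with a dye term. Over 24 settings each, Eif3k passed in 19, Eif4g2 in 13 and Eef1b2 in 7, with no change of sign.

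With 1 array left out, the 1-week median ranged from -0.036 to 0.042 for all factors, from 0.028 to 0.19 for eIF2, from -0.13 to 0.016 for eIF3, from 0.18 to 0.33 for eIF4, from -0.097 to 0.049 for the remaining initiation factors and from -0.24 to -0.032 for the elongation factors. At 6 weeks the median of all 43 factors was 0.077 with the 6-week dye reversal or both reversals turned, 0.066 without both dye-reversed arrays, -0.010 with a dye term, -0.027 and 0.11 for spots within 1 and 0.5 log2 unit, and -0.016 to 0.066 with 1 array left out. The 6-week eIF2 median was 0.20 without both dye-reversed arrays and -0.049 to 0.20 with 1 array left out. The 6-week eIF3 median was 0.077 for spots within 0.5 log2 unit and -0.17 to 0.11 with 1 array left out. For spots within 0.5 log2 unit the eIF4 median was 0.84 at 1 week and 0.31 at 6 weeks. The median of the remaining initiation factors was 0.19 and 0.18 at 1 week for spots within 1 and 0.5 log2 unit. At 6 weeks it was 0.060 with the 6-week or both reversals turned, 0.0088 without both dye-reversed arrays, -0.049 with the swap kept as 2 replicates, -0.11 with a dye term, -0.0051 and 0.15 for spots within 1 and 0.5 log2 unit, and -0.12 to 0.0088 with 1 array left out. The elongation factor median was 0.079 at 1 week for spots within 1 log2 unit. At 6 weeks it was 0.22 without both dye-reversed arrays, -0.027 and 0.22 for spots within 1 and 0.5 log2 unit, and 0.065 to 0.22 with 1 array left out. The cause of these moves was not tested.

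Signal over background was not assessed, and exact 0 values made up 2.2% to 5.11% of named features per array. No paired analysis was possible because the labels give no replicate numbers.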
